A study of Mus musculus with 6 samples.

Results

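Bone morphogenetic protein (BMP) signalling genes were examined in the lungs of old mice. The 10 genes, of 31054 features in the deposited tables, were taken by symbol: the ligands Bmp2, Bmp4, Bmp5 and Bmp6, the related ligand Gdf15, the extracellular regulators Bmper and Grem1, and the receptors Bmpr2, Acvrl1 and Eng. The rule that defines the set uses symbols and no measured value, but the set was drawn up with earlier results of these data known.

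BMPs are secreted dimers that bring together a type 1 and a type 2 receptor kinase, which then phosphorylate SMAD1, SMAD5 and SMAD9. These enter the nucleus with SMAD4 and raise target genes such as Id1, Id3, Smad6 and Smad7, of which the SMAD6 and SMAD7 proteins feed back to inhibit the pathway. In endothelium the usual receptor complex holds BMPR2, ALK1 (encoded by Acvrl1) and the co-receptor endoglin (Eng), and inherited loss of one of these genes causes pulmonary arterial hypertension or hereditary haemorrhagic telangiectasia. BMPER and gremlin 1 bind BMPs outside the cell, and GDF15, a distant family member, is a stress-induced hormone that signals through GFRAL in the brainstem.

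Lungs came from 6 male C57BL/6 mice of 21 months, with 1 library per mouse. The 3 mice labelled p16-DTR carried p16-CreERT2 and R26-LSL-DTR, in which a tamoxifen-activated Cre driven by the p16 promoter (p16 is a product of Cdkn2a) switches on a diphtheria toxin receptor, so that toxin removes the recombined cells. The 3 control mice carried p16-CreERT2 without the receptor, and all 6 had the same course: tamoxifen (TAM) on 5 days, a gap of 2 weeks, diphtheria toxin (DT) on 5 days and recovery for another 2 weeks. Each single-cell library (10x GEM-X 3′ chemistry) was made from 20000 sorted CD45- and 9000 CD45+ cells, so shares of cells reflect the sort as well as the lung.

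The libraries held 13482 to 17332 barcodes and 254200305 to 344421685 unique molecular identifiers (UMIs), with medians of 16588 to 18149 UMIs per barcode. Any pair of libraries shared 59 to 94 barcode sequences. Cdkn2a was summed over the retained cells of each library. It was at 6.83, 8.42 and 7.18 UMIs per 1000000 (CPM) in the p16-DTR-labelled libraries and at 1.21, 2.61 and 2.62 CPM in controls. In aerocytes (capillary cells described below), its class of highest level, it overlapped, at 44.0, 35.2 and 45.3 against 23.8, 38.8 and 43.9 CPM. It overlapped in pericytes and smooth muscle too. In every other class compared below it was higher in the p16-DTR-labelled libraries without overlap. In alveolar fibroblasts it was at 6.30, 6.17 and 4.27 against 0.0454, 0.123 and 0.152 CPM. Whether recombined cells were removed was not tested. Directions below therefore refer to "the p16-DTR-labelled libraries" and not to loss of p16-expressing cells. Cells were clustered without the 10 genes or other BMP pathway genes, and 23 classes with at least 50 cells in every library were compared. Class names rest on marker genes and mean "-like". One endothelial cluster detected all 9 general capillary markers but held more arterial markers (Sox17, Efnb2, Gja4) among its leading genes, and is called the Ntrk2 Sox17 endothelial cluster.

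For 8 of the 10 genes (all but Bmp2 and Acvrl1) RefSeq promoter sequence on GRCm38.p6 was matched. The 250 bases before the start sites of Bmper and Bmp5 are shown because these 2 genes shared their main source, fibroblasts, and both differed between the groups in the same cells (pericytes, below) in opposite directions. Both lie on the plus strand of chromosome 9, at chr9:23222826-23223075 and chr9:75775115-75775364, and capitals mark CAGAC or its reverse complement GTCTG, the core letters of a SMAD-binding element.
Bmper: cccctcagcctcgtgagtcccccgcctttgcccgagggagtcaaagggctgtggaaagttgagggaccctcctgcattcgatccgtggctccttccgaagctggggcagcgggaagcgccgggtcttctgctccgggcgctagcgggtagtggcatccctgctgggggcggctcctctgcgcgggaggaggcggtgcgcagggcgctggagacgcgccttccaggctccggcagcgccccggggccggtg
Bmp5: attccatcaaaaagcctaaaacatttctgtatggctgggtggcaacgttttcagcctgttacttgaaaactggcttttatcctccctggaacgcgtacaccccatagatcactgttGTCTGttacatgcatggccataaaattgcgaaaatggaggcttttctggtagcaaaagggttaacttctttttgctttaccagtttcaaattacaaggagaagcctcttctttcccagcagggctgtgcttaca
The Bmper window holds no match and 71.6% G or C, and the Bmp5 window holds 1 match and 42.8% G or C. Windows with at least 1 match on either strand made up 42.2% of 32851 RefSeq promoters of this length. GGCGCC, a GC-rich element bound by BMP-activated SMADs, was in neither window and in 9.59% of promoters.

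The ligands were divided between cell lineages. Of the Bmp6 UMIs in retained cells, 96.4% lay in blood endothelium (95.8% to 97.1% over the 6 libraries), whereas fibroblasts held 94.7% of the Bmp5 UMIs, 76.6% of Bmp4 and 66.9% of Bmp2. Bmper UMIs lay in fibroblasts at 97.4%. The receptors had the same main source as Bmp6, since blood endothelium held 82.8% of Bmpr2, 86.0% of Acvrl1 and 91.8% of Eng UMIs. Gdf15 was more widely spread, with 54.7% in blood endothelium (36.6% to 69.7% over libraries) and 16.9% in fibroblasts.

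**Figure D1:**
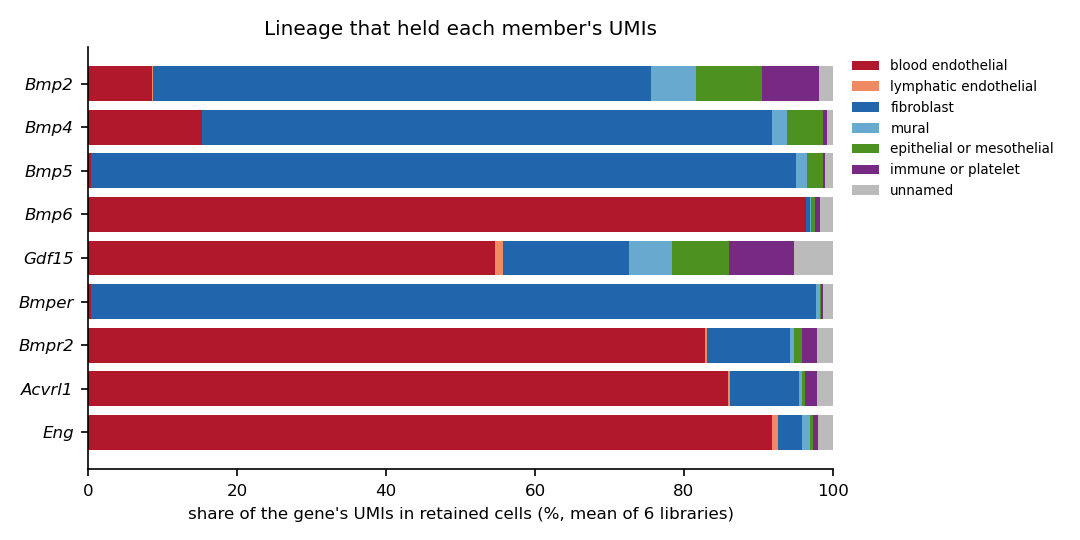
Stacked bars give, for 9 genes, the percent of the gene's UMIs in retained cells that lay in each lineage, as the mean of 6 libraries; Grem1 is left out for its few UMIs. Bmp6 and the 3 receptors are mostly in blood endothelium (82.8% to 96.4%), and Bmp5 and Bmper mostly in fibroblasts (94.7% and 97.4%).

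Bmp6 (chr13:38345107-38500302), known in the liver as the endothelial ligand that sets hepcidin and so iron balance, had its highest levels in the Ntrk2 Sox17 endothelial cluster at 1498 ± 212 CPM (SD, n = 6 libraries), then general capillary cells at 1173 ± 197, arterial cells at 1033 ± 249 and venous cells at 599 ± 129. The ranges of neighbours in this order overlapped: 1185 to 1772, 911 to 1413, 707 to 1422 and 399 to 787 CPM. Aerocytes, the capillary cells that face the alveolar gas, stood below these 4 classes at 47.6 to 130 CPM. Lymphatic endothelium was lower again at 5.55 to 24.8 CPM. Outside endothelium, platelets or megakaryocytes held Bmp6 at 494 CPM pooled over libraries. That class had too few cells to compare, with 429 of its 583 cells in control replicate 3. In that library 874 Bmp6 UMIs lay in 90 of the 429 cells. The part of endothelial RNA in this class was not tested. In neutrophils, taken as a reading of free RNA (which was not tested), Bmp6 was at 2.24 to 4.72 CPM (median 9297 UMIs per cell).

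Bmp5 (chr9:75775364-75900310) was highest in peribronchial fibroblasts at 724 ± 128 CPM and alveolar fibroblasts at 568 ± 50.4 CPM, whose ranges (593 to 927 and 512 to 636) overlapped. Smooth muscle at 211 ± 40.3, pericytes at 189 ± 46.2, adventitial fibroblasts at 137 ± 16.1 and alveolar type 2 cells, the surfactant-producing epithelium, at 117 ± 27.4 CPM followed, each overlapping the next. Bmp4 (chr14:46383520-46390669), needed for lung budding in the embryo, had no single leading class: pericytes at 132 ± 16.5, alveolar type 1 cells at 130 ± 31.0 and alveolar fibroblasts at 123 ± 14 CPM were within one another's spread. Bmp2 (chr2:133552159-133562885) was scarce in these 23 classes, with 59.8 ± 19.2 CPM in peribronchial fibroblasts and 44.0 ± 9.56 in pericytes, and had 0 UMIs in alveolar type 1 cells, which allows up to 0.417 CPM from 3 pooled counts. Gdf15 (chr8:70629393-70632456) was highest in aerocytes at 105 ± 34.1 CPM, above pericytes at 45.2 ± 20.7 and smooth muscle at 30.3 ± 6.66 CPM, and it was at 0.401 to 2.93 CPM in general capillary cells. Among the classes with too few cells to compare, type 2 innate lymphoid cells (117 cells, 10 to 30 per library) held Bmp2 at 235, 207 and 237 CPM in the p16-DTR-labelled libraries and 58.8, 136 and 7.28 CPM in controls. These levels rest on 282 UMIs, and the difference was not tested. Alveolar macrophages (222 cells) held Gdf15 at 396, 13.7 and 190 against 128, 65.3 and 21.7 CPM, a spread within each group wider than that in aerocytes.

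**Figure D2:**
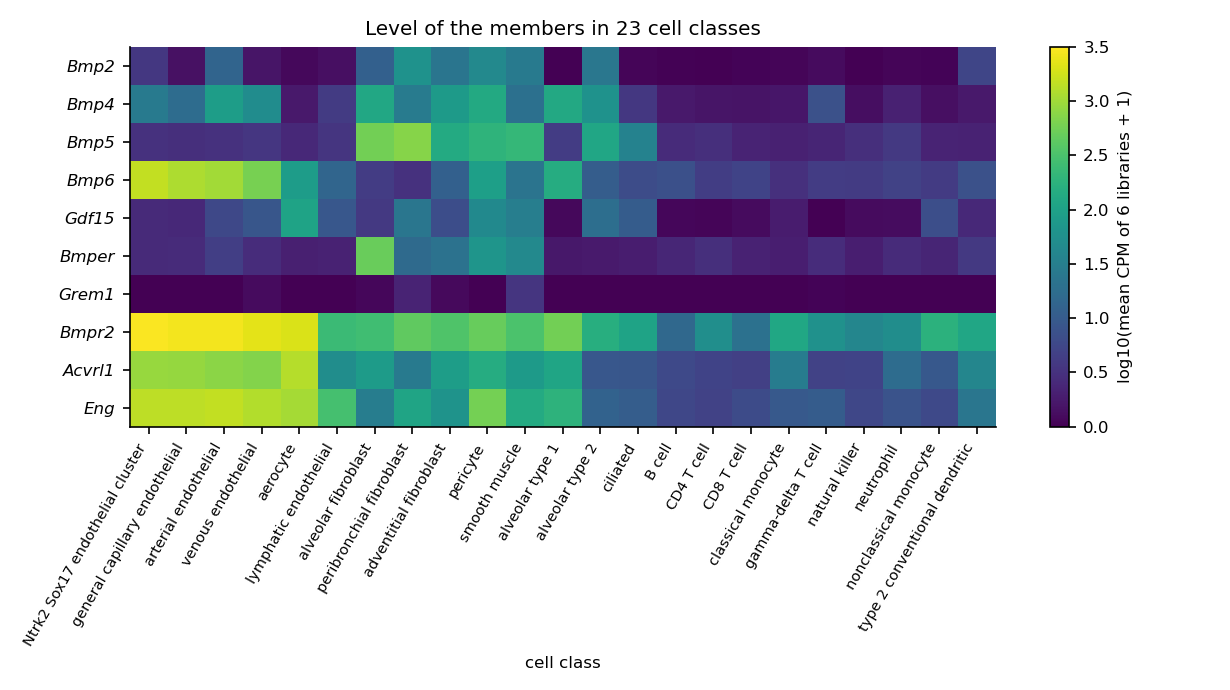
Colour gives log10(mean CPM of 6 libraries + 1) for the 10 genes (rows) in 23 cell classes (columns). Bmp6 is bright in 4 blood endothelial classes (599 to 1498 CPM) and dimmer in aerocytes (85.3 CPM), Gdf15 is brightest in aerocytes (105 CPM), and Bmper is brightest in alveolar fibroblasts (498 CPM).

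The comparison of p16-DTR-labelled libraries with controls asked how these genes stood in each class after the treatment. Over 23 classes, 159 gene and class pairs passed the filter on low counts, with 9 of 10 genes in at least 1 class and Grem1 in none. In edgeR's quasi-likelihood test with Benjamini-Hochberg adjustment within a class, 7 pairs passed an adjusted p of 0.05, in 3 classes and 5 genes: Bmp6 in aerocytes, Bmper in alveolar fibroblasts, and Bmp6, Bmp5, Bmper, Bmpr2 and Acvrl1 in pericytes. Over all classes 1.08% of gene and class pairs were called. The 7 are described below with the class's share of all genes called. Where groups are said not to overlap, the share of all tested genes whose groups did not overlap was 21.9% in aerocytes, 26.3% in general capillary, 25.2% in venous and 20.9% in arterial cells, 25.8% in the Ntrk2 Sox17 cluster, 27.2% in alveolar and 24.8% in peribronchial fibroblasts, 17.9% in alveolar type 2 cells and 20.4% in pericytes. The median log2 difference over the 159 pairs was 0.07, while the median over all genes lay between -0.01 and 0.02 in every class.

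Bmp6 fell in aerocytes. Its level was 67.8, 47.6 and 56.9 CPM in the p16-DTR-labelled libraries and 110, 130 and 99.2 CPM in controls, so the groups did not overlap. The log2 fold change was -0.96 (SE 0.13, adjusted p = 0.0117), or 0.515-fold. It was called with each library left out in turn (-1.08 to -0.82, highest adjusted p 0.0405). In aerocytes 1 of 7 tested genes was called, where 1.33% of 11991 genes were. The class was 1 cluster in all libraries, its 8 aerocyte markers summed to 12830 to 14280 CPM in both groups, and general capillary markers summed to 368 to 413 against 341 to 393 CPM.

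Bmp6 was also lower on average in the other 4 blood endothelial classes, but none of these passed with edgeR. In general capillary cells it was at 1077, 1071 and 911 CPM in the p16-DTR-labelled libraries against 1413, 1390 and 1177 CPM, with no overlap and a log2 difference of -0.35 (SE 0.10, unadjusted p = 0.0054, adjusted p = 0.0858), which DESeq2 called (-0.34, adjusted p = 0.0123). There, 20.9% of 13997 genes had an unadjusted p under 0.05. Venous cells gave 552, 586 and 399 against 676, 787 and 594 CPM (log2 -0.40, SE 0.15, adjusted p = 0.185), again without overlap. In arterial cells 0.235% of 11920 genes were called. Arterial cells gave 1048, 903 and 707 against 1422, 1190 and 929 CPM (log2 -0.39, SE 0.17, adjusted p = 0.319), and the Ntrk2 Sox17 cluster 1463, 1411 and 1185 against 1772, 1700 and 1459 CPM (log2 -0.25, SE 0.10, adjusted p = 0.212). In these 2 classes the groups overlapped.

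Whether Bmp6 differed more in aerocytes than in general capillary cells was tested directly, with the library as a block. The log2 difference of the 2 changes was -0.58 (SE 0.12, edgeR adjusted p = 0.0718), which did not pass. It passed in 1 of 6 fits with a library left out (without control replicate 1, -0.69, adjusted p = 0.0485), and over these fits it ranged from -0.69 to -0.42, with the highest adjusted p (0.186) without control replicate 2. The numbers of general capillary cells were 1788, 1675 and 1604 in the p16-DTR-labelled libraries and 973, 1122 and 1163 in controls, with the related Ntrk2 Sox17 cluster at 1199, 1391 and 1861 against 1508, 1722 and 1634 cells. The part of this shift in the differences between those 2 classes was not tested.

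Gdf15 pointed the other way from Bmp6 in aerocytes. It was at 139, 117 and 138 CPM in the p16-DTR-labelled libraries and 67.5, 108 and 59.9 CPM in controls, with no overlap. The log2 difference was 0.77 (SE 0.18, unadjusted p = 0.00128), and the adjusted p of 0.0636 missed the threshold. Without control replicate 2, the highest control, the value was 1.08 and passed (adjusted p = 0.00126). The difference did not pass with DESeq2 (0.78, adjusted p = 0.157) or with the replicate number as a block (0.80, adjusted p = 0.0792). In the other 13 classes where Gdf15 could be tested its unadjusted p was above 0.05.

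Bmp5 was lower in alveolar type 2 cells of the p16-DTR-labelled libraries on all 3 values, at 92.2, 90.5 and 98.2 CPM against 158, 130 and 132 CPM. The log2 difference was -0.54 (SE 0.09, unadjusted p = 0.000174, adjusted p = 0.0895). It passed without p16-DTR replicate 3 (-0.57, adjusted p = 0.0333), with classes set by a marker gate on each cell (the per-cell marker gate; -0.53, adjusted p = 0.0463) and with DESeq2 (-0.54, adjusted p = 0.000881). It missed in edgeR with RLE scaling (adjusted p = 0.0888), library-size scaling (0.0722) and the replicate number as a block (0.0594). In this class edgeR called 0% of 11734 genes, 12.7% had an unadjusted p under 0.05, and DESeq2 called 115. In the 2 classes of highest level Bmp5 overlapped between groups, at 512, 636 and 604 against 512, 558 and 586 CPM in alveolar fibroblasts, and 680, 830 and 593 against 927, 681 and 634 CPM in peribronchial fibroblasts.

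Bmp4 was at 25.8, 13.6 and 16.7 CPM in peribronchial fibroblasts of the p16-DTR-labelled libraries and at 45.2, 31.8 and 33.3 CPM in controls, without overlap (log2 -0.90, SE 0.23, adjusted p = 0.0621). It passed without p16-DTR replicate 1 (-1.24, adjusted p = 0.0185), with the per-cell marker gate (-1.06, adjusted p = 0.0335) and with DESeq2 (-0.91, adjusted p = 0.0328). It missed in edgeR with RLE scaling (adjusted p = 0.0628) and with library-size scaling (adjusted p = 0.0612). In arterial cells Bmp4 was at 73.8, 68.3 and 42.6 against 173, 96.0 and 67.3 CPM (log2 -0.83, SE 0.31, adjusted p = 0.239), where 1 high control library and an overlap stand beside the mean difference. Bmp4 overlapped in alveolar fibroblasts, which held most of its UMIs, at 146, 104 and 123 against 123, 127 and 113 CPM.

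Bmp2 was at 7.15, 12.5 and 3.46 CPM in arterial cells of the p16-DTR-labelled libraries and 19.1, 15.1 and 17.0 CPM in controls (log2 -1.11, SE 0.34, adjusted p = 0.161, and 0.0435 with DESeq2), without overlap. In general capillary cells it was at most 0.882 CPM in any library, and its log2 difference of 1.95 (SE 0.65, adjusted p = 0.136) rests on 64 UMIs in all. Bmp5 in general capillary cells (log2 -0.60, SE 0.26, adjusted p = 0.227) and Bmper in the Ntrk2 Sox17 cluster (log2 -0.74, SE 0.32, adjusted p = 0.234) were also at most 2.94 CPM in any library and overlapped between groups.

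**Figure D3:**
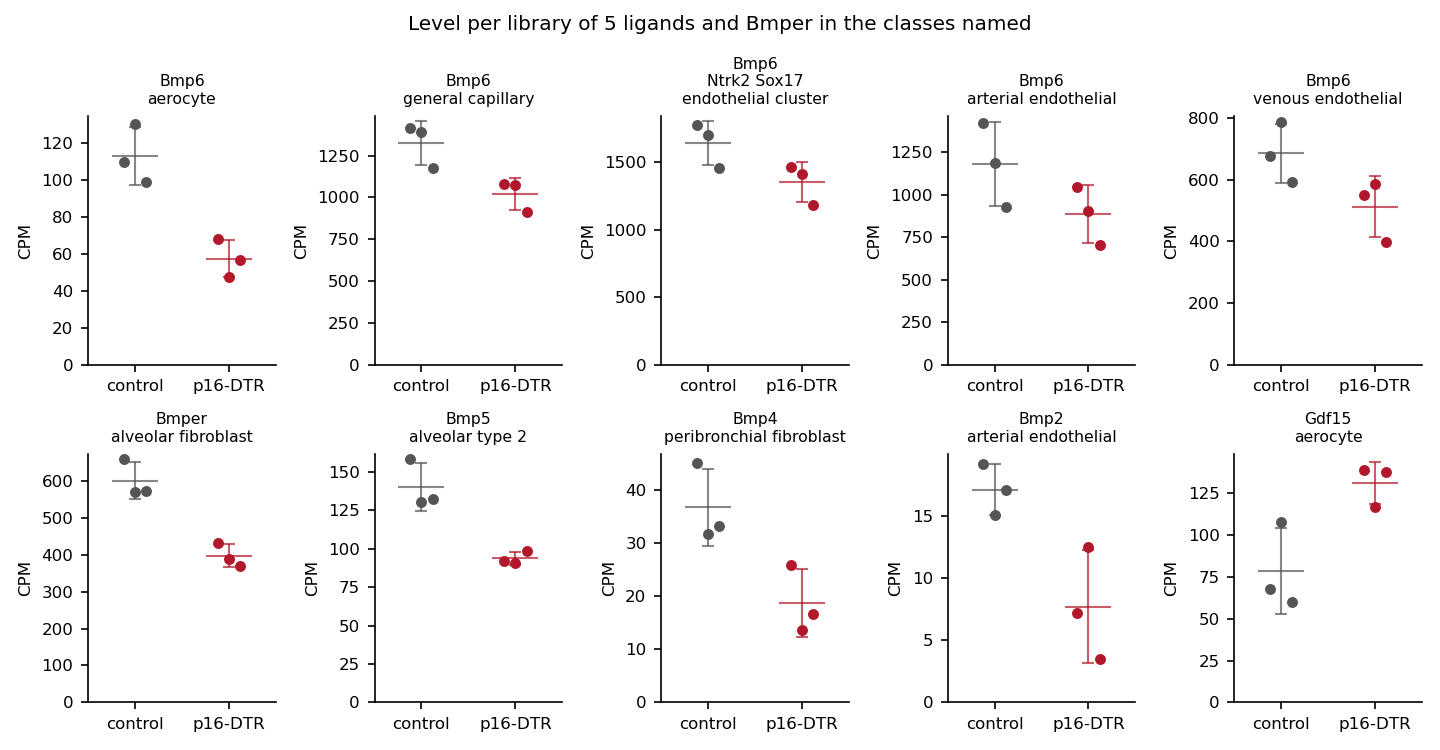
Points are CPM in single libraries for Bmp6 in 5 blood endothelial classes and for Bmper, Bmp5, Bmp4, Bmp2 and Gdf15 in 1 class each; the horizontal line is the mean and the bar the SD of 3 libraries, and each vertical axis starts at 0. Of these panels only Bmp6 in aerocytes (47.6 to 67.8 against 99.2 to 130 CPM) and Bmper in alveolar fibroblasts (371 to 431 against 569 to 658 CPM) passed the test.

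Bmper (chr9:23223076-23485200), whose product binds BMPs and can raise or lower their signal, had its level in 1 class above all: alveolar fibroblasts at 498 ± 118 CPM, followed by pericytes at 66.5 ± 24.7 and smooth muscle at 42.9 ± 27.0 CPM. In alveolar fibroblasts it fell, from 658, 569 and 573 CPM in controls to 431, 388 and 371 CPM in the p16-DTR-labelled libraries, with no overlap. The log2 fold change was -0.58 (SE 0.09, adjusted p = 0.0443), or 0.671-fold, and 1.31% of 16782 genes were called in this class. The call is near its threshold: the change stayed between -0.65 and -0.51 when each library was left out in turn, but the adjusted p passed only without p16-DTR replicate 1 (0.038). It was 0.0656 without p16-DTR replicate 2, 0.153 without p16-DTR replicate 3, and 0.128, 0.0543 and 0.128 without control replicates 1, 2 and 3.

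Bmper was lower without overlap in 1 of the 3 alveolar fibroblast clusters. In the largest, led by Fat3, Fgfr4 and Scube2, Bmper was at 522, 485 and 430 CPM in the p16-DTR-labelled libraries and 854, 740 and 751 CPM in controls. That cluster tested alone gave -0.70 (adjusted p = 0.0354). In the second, led by Ppp1r3a and Itgb8, the values were 204, 261 and 302 against 285, 267 and 257 CPM, which overlapped, and in the third, of low UMI count, they were 44.7 to 63.8 against 39.0 to 58.9 CPM. The largest cluster made up 56.6% of alveolar fibroblasts in the p16-DTR-labelled libraries and 59.9% in controls, and Bmper was itself among the 10 genes that lead it although it was not used in the clustering. The difference between clusters was not tested. In peribronchial fibroblasts Bmper was at 11, 25.7 and 27.1 against 2.67, 6.61 and 18.0 CPM, with an overlap (log2 1.23, SE 0.54, adjusted p = 0.246, and 0.0474 without control replicate 3). The adjusted p there was 0.542 with DESeq2 and 0.0271 in edgeR with the replicate number as a block.

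Grem1 (chr2:113746164-113758646), encoding gremlin 1, an antagonist of BMP2 and BMP4 that is raised in several fibrotic tissues, was scarcely detected in these libraries. The retained cells of all libraries held 290 Grem1 UMIs. It had 0 UMIs in 16 of 23 classes, which allows levels of up to 0.0206 CPM (the Ntrk2 Sox17 cluster) to 0.417 CPM, from 3 counts pooled over the 6 libraries of a class and for counting error only. Its highest class mean was in smooth muscle, from 22 UMIs, at 0.833, 0 and 7.95 CPM in the p16-DTR-labelled libraries and 3.61, 1.29 and 1.27 CPM in controls. Unnamed clusters held 154 of the UMIs, and in 1 library 92.2% of its Grem1 UMIs lay there.

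Bmpr2 (chr1:59763400-59879014), the type 2 receptor, was at 3032 ± 108 CPM in the Ntrk2 Sox17 cluster, 2781 ± 137 in general capillary, 2747 ± 230 in arterial, 2247 ± 186 in venous cells and 2030 ± 62.1 CPM in aerocytes. Lymphatic endothelium had 245 ± 16.3 CPM. Acvrl1 (chr15:101128522-101145336), the type 1 receptor for BMP9 and BMP10, had another order, with aerocytes highest at 1286 ± 66.1 CPM, then the Ntrk2 Sox17 cluster at 912 ± 37.9, general capillary at 896 ± 43.2, arterial at 771 ± 46.8 and venous cells at 712 ± 59.3 CPM. The aerocyte libraries (1198 to 1387 CPM) lay above every library of the other classes (at most 941 CPM). Eng (chr2:32646595-32682669) was at 1531 ± 198 CPM in arterial cells and 1063 ± 65.9 in aerocytes, with the other 3 blood endothelial classes between and overlapping.

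In blood endothelium 0 of 15 receptor and class pairs passed the edgeR test, 4 had an unadjusted p under 0.05 beside 18.9% of all genes tested in these 5 classes, and DESeq2 called 1 (venous Bmpr2, adjusted p = 0.0479) beside 4.74% of all genes. Bmpr2 was at 2863, 2911 and 2928 CPM in general capillary cells of the p16-DTR-labelled libraries and 2637, 2631 and 2712 CPM in controls, without overlap (log2 0.16, SE 0.07, adjusted p = 0.236). In venous cells it was at 2314, 2439 and 2463 against 2009, 2119 and 2140 CPM (log2 0.23, SE 0.08, adjusted p = 0.135). Venous Acvrl1 was at 730, 764 and 790 against 676, 633 and 682 CPM (log2 0.22, SE 0.07, adjusted p = 0.109), and venous Eng at 1411, 1306 and 1263 against 1004, 1250 and 1198 CPM (log2 0.23, SE 0.10, adjusted p = 0.232). In aerocytes the 3 receptors overlapped between groups, and Bmpr2 was at 1916, 2071 and 2021 against 2020, 2069 and 2083 CPM.

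Outside blood endothelium the receptors had lower levels, and apart from pericytes none of their tested differences passed the edgeR test. Platelets or megakaryocytes, with too few cells to compare, held Bmpr2 at 1119, Eng at 612 and Acvrl1 at 436 CPM pooled over libraries. In control replicate 3 these UMIs lay in 188, 134 and 137 of 429 cells. The part of endothelial RNA there was not tested. In alveolar fibroblasts Acvrl1 was at 93.8, 82.5 and 86.3 against 72.7, 76.0 and 76.6 CPM (log2 0.24, SE 0.07, adjusted p = 0.0907, and 0.0329 with DESeq2), and Bmpr2 at 264, 303 and 288 against 247, 256 and 258 CPM (log2 0.19, adjusted p = 0.146). Eng there was at 31.2, 30.1 and 34.2 against 24.4, 28.0 and 28.6 CPM (log2 0.26, SE 0.08, adjusted p = 0.112). General capillary markers summed to 444 to 517 CPM in that class in the p16-DTR-labelled libraries and 499 to 500 CPM in controls. Nonclassical monocytes held Bmpr2 at 188 ± 9.85 against 162 ± 9.93 CPM (SD, n = 3; log2 0.23, adjusted p = 0.449). Eng in classical monocytes (log2 0.37, SE 0.16, adjusted p = 0.438) and Acvrl1 in type 2 conventional dendritic cells (log2 0.38, SE 0.15, adjusted p = 0.563) also had an unadjusted p under 0.05.

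Epithelial and smooth muscle values came with endothelial genes. In alveolar type 1 cells of p16-DTR replicate 1, Eng was at 486 CPM where the other 5 libraries had 111 to 140 CPM (log2 1.04, SE 0.46, adjusted p = 0.767), and Pecam1, an endothelial gene, was at 481 against 153 to 263 CPM. In alveolar type 2 cells Eng was at 32.8, 23.5 and 2.99 against 4.51, 3.46 and 2.42 CPM (log2 2.58, SE 0.68, adjusted p = 0.217, 0.000824 without p16-DTR replicate 3, and 0.0309 with the per-cell marker gate), with Pecam1 at 47.4, 34.8 and 8.26 against 12.6, 5.71 and 7.64 CPM. Acvrl1 there was at 21.6, 12.3 and 2.28 against 5.59, 2.86 and 2.67 CPM (log2 1.78, SE 0.64, adjusted p = 0.309, and 0.0131 without p16-DTR replicate 3). With DESeq2 the adjusted p in alveolar type 2 cells was 0.205 for Eng and 0.645 for Acvrl1. In smooth muscle Eng, Acvrl1 and Bmpr2 had log2 differences of 0.69, 0.66 and 0.53 (adjusted p 0.385, 0.423 and 0.45), with Pecam1 at 117, 87.2 and 38.2 against 9.64, 28.4 and 46.9 CPM. Bmp6 in smooth muscle was at 50.0, 20.2 and 27.0 against 4.82, 6.47 and 19.9 CPM (log2 1.5, SE 0.50, adjusted p = 0.475), and Bmp4 at 19.1, 22.1 and 31.0 against 9.03, 18.8 and 10.1 CPM (log2 0.92, SE 0.33, adjusted p = 0.486); both turned negative with predicted doublets kept (-0.76 and -0.21). The part of endothelial RNA in these epithelial and smooth muscle values was not tested. Smooth muscle cells before doublets were left out numbered 50, 70 and 53 in the p16-DTR-labelled libraries and 87, 95 and 126 in controls. After that step 50, 70 and 52 against 79, 84 and 101 remained, so the loss was mostly in controls.

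Pericytes, the mural cells that wrap capillaries, had 5 of the 7 calls. For 3 of these 5 genes (Bmp6, Bmpr2 and Acvrl1) the higher levels lay in a small cluster, described below. In this class 4.17% of 10038 genes were called, against 5 of 9 tested genes here, a count that includes those 3. Over all pericytes Bmp6 was at 147, 143 and 133 CPM in the p16-DTR-labelled libraries and 26.6, 68.9 and 37.9 CPM in controls (log2 1.63, SE 0.24, adjusted p = 0.00298). Acvrl1 was at 169, 193 and 211 against 93.4, 102 and 103 CPM (log2 0.92, SE 0.12, adjusted p = 0.0012). Bmpr2 was at 570, 567 and 603 against 335, 417 and 383 CPM (log2 0.61, SE 0.10, adjusted p = 0.00445). None of these 3 genes overlapped between groups.

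The same libraries also differed in endothelial markers within pericytes. All 9 general capillary markers were detected there, and they summed to 1383, 1853 and 1244 CPM in the p16-DTR-labelled libraries against 399, 642 and 351 CPM, with Pecam1 at 213, 280 and 262 against 69.1, 120 and 70.7 CPM. These values are for the whole class and were not taken for each cluster. The class had 2 clusters. Before predicted doublets were left out, cluster 58 had 23.5% of them and a median of 6040 UMIs. It then held 23, 13 and 16 cells in the p16-DTR-labelled libraries and 32, 29 and 23 in controls. Leaving doublets out kept 48 and 56 cells of these groups, so more control cells were lost. The kept cells were 20.8% of retained pericytes in the p16-DTR-labelled libraries and 12.7% in controls. Bmp6 was at 347 to 828 CPM in cluster 58 in both groups and at 1.12 to 5.38 CPM in the main cluster (cluster 31) in both groups. In cluster 58 Bmpr2 was at 1206 to 2448 and Acvrl1 at 464 to 917 CPM over the libraries of both groups. In the main cluster alone Bmpr2 was at 281, 231 and 254 against 271, 285 and 289 CPM, and its log2 difference turned to -0.14 (adjusted p = 0.713). Acvrl1 there was at 80.7, 87.7 and 77.3 against 62.0, 56.7 and 68.5 CPM (log2 0.40, adjusted p = 0.283), without overlap, and Bmp6 was too low to test.

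Bmper and Bmp5 did not overlap between groups in the main pericyte cluster itself. Bmper rose in pericytes, from 45.3, 37.7 and 55.7 CPM in controls to 79.0, 78.0 and 104 CPM (log2 0.90, SE 0.17, adjusted p = 0.0108), the opposite direction from alveolar fibroblasts. In the main cluster it was at 91.7, 92.5 and 122 against 48.6, 41.5 and 58.2 CPM and passed again (log2 1.04, adjusted p = 0.0083). Bmp5 fell in pericytes, from 235, 219 and 228 to 122, 175 and 152 CPM (log2 -0.61, SE 0.13, adjusted p = 0.0182). The Bmp5 call rested on 2 controls, since the adjusted p was 0.075 when control replicate 1 was left out and 0.0871 when control replicate 3 was. In the main cluster Bmp5 was at 147, 201 and 178 against 246, 235 and 237 CPM (log2 -0.44, adjusted p = 0.108). With predicted doublets kept, both lost their calls at nearly the same size (0.90, adjusted p = 0.305, for Bmper and -0.61, adjusted p = 0.394, for Bmp5). None of the 5 pericyte genes passed with predicted doublets kept, with the per-cell marker gate or at clustering resolution 0.8. Pericytes numbered 77, 87 and 67 cells in the p16-DTR-labelled libraries and 127, 161 and 153 in controls.

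**Figure D4:**
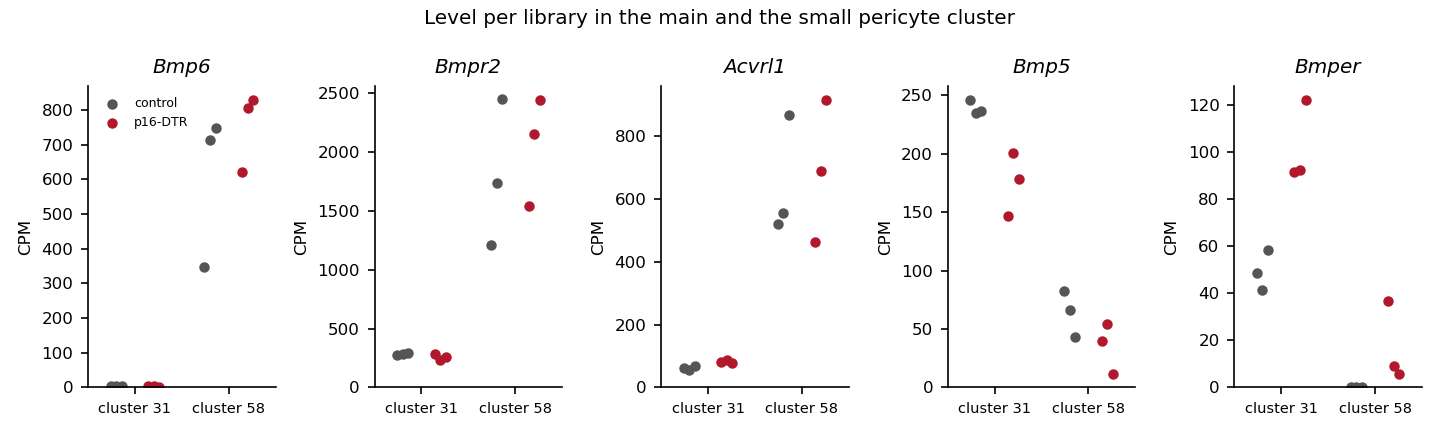
Points are CPM in single libraries for 5 genes in the main pericyte cluster (31) and the small one (58), grey for control and red for p16-DTR; each vertical axis starts at 0. Bmp6, Bmpr2 and Acvrl1 are high in cluster 58 in both groups (Bmp6 347 to 828 CPM) and low in cluster 31 (Bmp6 at most 5.38 CPM), while Bmp5, Bmper and Acvrl1 (56.7 to 68.5 against 77.3 to 87.7 CPM) do not overlap between groups within cluster 31.

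The rest of the pathway was read from 5 lists of 57 further genes: 13 ligands, 19 antagonists and modulators, 9 receptors and co-receptors, 8 SMADs and 8 target genes. Over all classes 24 of 665 tested gene and class pairs passed (3.61%, beside 1.08% of the pairs of all genes), from 11 genes. In general capillary cells 8 were called, where 2.81% of 13997 genes were: the inhibitory Smad6 and Smad7 (2 of 8 SMADs), the targets Id1 and Hey1 (2 of 8) and the activin subunit gene Inhbb were higher, and Bmp8a, the decoy receptor Bambi and the type 2 receptor Acvr2a (1 of 5 tested receptors) were lower. The median log2 difference there was 0.14 over the 8 SMADs and 0.22 over the 8 targets, beside -0.00 over all genes tested. It was -0.29 over 12 tested antagonists and modulators, -0.23 over 3 ligands and -0.10 over 5 receptors.

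Smad7 rose in general capillary cells from 297, 325 and 305 to 442, 439 and 536 CPM (log2 0.65, SE 0.09, adjusted p = 0.023), in venous cells from 280, 347 and 295 to 476, 470 and 574 CPM (log2 0.75, SE 0.11, adjusted p = 0.00965) and in the Ntrk2 Sox17 cluster from 343, 405 and 357 to 508, 517 and 615 CPM (log2 0.60, SE 0.10, adjusted p = 0.0334). The groups did not overlap in any of the 3. With a library left out, Smad7 was called in 4, 6 and 2 of 6 fits in general capillary cells, venous cells and the Ntrk2 Sox17 cluster. In aerocytes Smad7 was at 202, 236 and 197 against 257, 221 and 232 CPM (log2 -0.12, SE 0.08, adjusted p = 0.517). The difference between aerocytes and general capillary cells passed its own test, at -0.73 (SE 0.13, adjusted p = 0.0278), where 0.351% of 13660 genes did. It was lost without p16-DTR replicate 1 (0.125), p16-DTR replicate 3 (0.063), control replicate 1 (0.0678) or control replicate 3 (0.0527).

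Smad6 rose in general capillary cells from 455, 579 and 586 to 792, 723 and 748 CPM (log2 0.52, SE 0.10, adjusted p = 0.0405), a call lost without any 1 of the 6 libraries (adjusted p 0.0593 to 0.117). Id1 rose there from 354, 378 and 393 to 483, 450 and 476 CPM (log2 0.36, SE 0.07, adjusted p = 0.0371) and was called in 1 of the 6 fits with a library left out (adjusted p 0.0453 to 0.11). Id1 also rose in venous cells, from 317, 394 and 426 to 549, 524 and 537 CPM (log2 0.53, SE 0.11, adjusted p = 0.0274, called in 2 of these 6 fits). In aerocytes Id1 was at 553, 562 and 510 against 600, 535 and 529 CPM (log2 0.00, SE 0.07) and Smad6 at 581, 635 and 537 against 572, 581 and 570 CPM (log2 0.06, SE 0.07), and both overlapped. The aerocyte minus general capillary difference was -0.43 for Smad6 (adjusted p = 0.146) and -0.32 for Id1 (adjusted p = 0.223), neither of which passed. For Id3 it passed at -0.49 (SE 0.08, adjusted p = 0.0201), with Id3 at 336, 372 and 347 against 332, 284 and 275 CPM in general capillary cells and at 486, 474 and 428 against 652, 499 and 535 CPM in aerocytes. It missed without p16-DTR replicate 3 (0.0781).

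**Figure D5:**
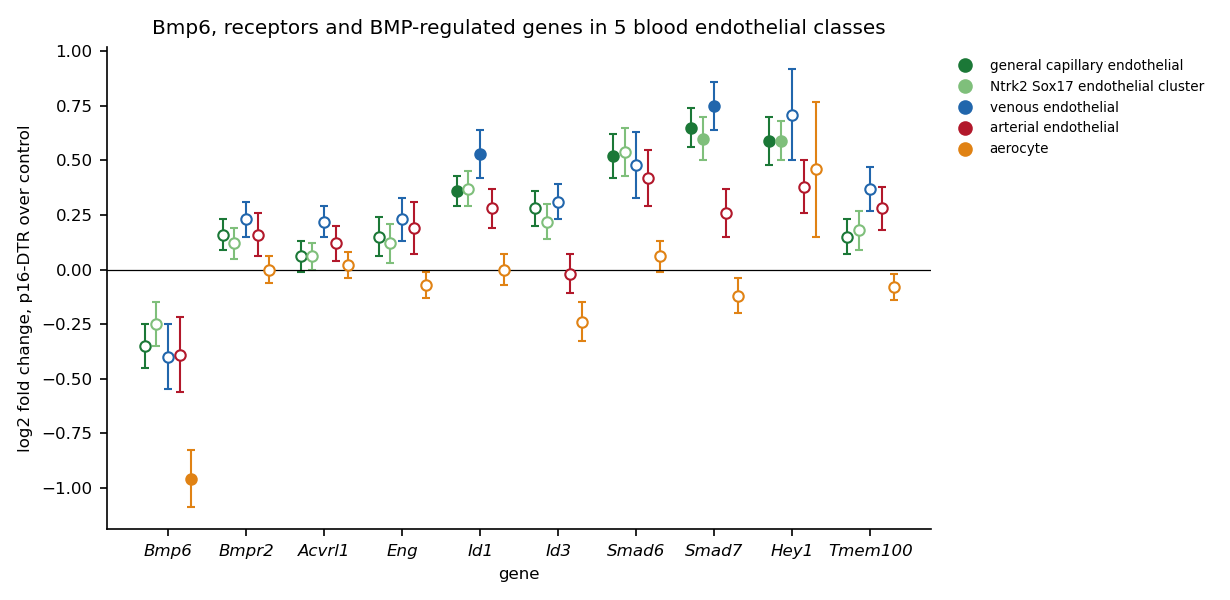
Points are log2 fold changes of p16-DTR over control libraries and bars their standard errors, for Bmp6, 3 receptors and 6 further pathway genes in 5 blood endothelial classes; filled points passed an adjusted p of 0.05 and open points did not. Bmp6 lies below 0 in all 5 classes and furthest in aerocytes (-0.96), while Smad7 is at 0.60 to 0.75 in general capillary, Ntrk2 Sox17 and venous cells and at -0.12 in aerocytes.

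The other endothelial calls were of lower genes or smaller size. Hey1, also a Notch target, rose in general capillary cells and in the Ntrk2 Sox17 cluster (both log2 0.59, adjusted p 0.0371 and 0.0308), and Inhbb rose in the same classes (1.31 and 1.37) from a mean of 3.33 and 3.14 CPM. Bmp8a fell in general capillary and venous cells (-0.97 and -0.92) and Bambi in the same classes (-0.58 and -0.64), all with control means of 9.44 to 43.4 CPM. Acvr2a fell by 0.30 on the log2 scale in general capillary cells (SE 0.06, adjusted p = 0.0371) and by 0.88 in CD4 T cells (SE 0.19, adjusted p = 0.0335), where 3% of 11265 genes were called. The CD4 T cell call was lost without p16-DTR replicate 2 or any 1 of the controls (adjusted p 0.0624 to 0.0884), and with the per-cell marker gate the value was -0.25 (adjusted p = 0.369). In the Ntrk2 Sox17 cluster 1.78% of 14124 genes and in venous cells 4.91% of 13006 genes were called.

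In fibroblasts and pericytes, Bmp8a fell in alveolar fibroblasts from 145, 95.9 and 139 to 51.6, 62.4 and 43.4 CPM (log2 -1.25, SE 0.18, adjusted p = 0.041), and Fstl3, which encodes a binder of activins, rose from 24.4, 27.2 and 26.4 to 33.2, 35.0 and 34.9 CPM (log2 0.42, adjusted p = 0.041). In peribronchial fibroblasts, where 2.62% of 11230 genes were called, Tmem100, a target of ALK1 signalling in endothelium, rose from 73.5, 89.3 and 79.9 to 132, 143 and 141 CPM (log2 0.81, SE 0.11, adjusted p = 0.00973), and the activin antagonist Fst rose from 0.535, 1.65 and 1.33 to 11.6, 4.85 and 21.7 CPM (log2 3.49, SE 0.60, adjusted p = 0.0221). In pericytes Smad6 (1.58) and Tmem100 (0.68) passed upwards and Fst (-0.62) and Bambi (-0.54) downwards. All 4 lost their calls in the main pericyte cluster alone, at 0.64, 0.07, -0.43 and -0.38.

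Of these 24 pathway calls, 5 held with each library left out in turn: Smad7 and Bmp8a in venous cells, Tmem100 in peribronchial fibroblasts, and Smad6 and Tmem100 in pericytes. The other 19 were lost without at least 1 library, 3 of them (Smad6, Bambi and Acvr2a in general capillary cells) without any 1 of the 6, with adjusted p of at most 0.117. Their directions stayed. Of the 24, those still called numbered 9, 12 and 8 without p16-DTR replicates 1, 2 and 3 and 7, 14 and 9 without control replicates 1, 2 and 3. DESeq2 called 23 of them (all but Fst in peribronchial fibroblasts), and the per-cell marker gate called 12 of the 21 it could test. With the replicate number as a block 13 of the 24 stayed called, and in general capillary cells only Smad7 did.

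Over whole libraries (all retained cells of a mouse), where fewer cells of a type and less RNA per cell cannot be told apart, edgeR called none of 21405 genes (0%), although 23.4% fell under an unadjusted p of 0.05, and DESeq2 called 2712. Groups did not overlap for 31.3% of these genes. Bmper was at 116, 94.5 and 78.2 CPM in the p16-DTR-labelled libraries and 246, 144 and 154 CPM in controls, without overlap (log2 -0.87, SE 0.25, unadjusted p = 0.012, adjusted p = 0.145, and 0.0146 with DESeq2). Alveolar fibroblasts, its main source, numbered 3279, 2790 and 2378 cells against 5267, 2690 and 3495. Bmp6 overlapped over whole libraries, at 288, 290 and 268 against 255, 402 and 276 CPM.

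Genes with the most similar level across the 23 classes were found by Pearson's r of log2(mean CPM + 1) among 15629 genes of at least 5 CPM in some class; these are descriptions over classes that share libraries. For Bmp6 they were Pgr (0.981) and Notch4 (0.980), for Bmpr2 Smad6 (0.950) and Tmcc2 (0.946), for Acvrl1 Tmcc2 (0.966) and Fmo1 (0.958), and for Eng Bvht (0.968) and Hyal2 (0.963). For Bmp5 they were Klhl29 (0.952) and Col6a1 (0.951), for Bmper Chrna7 (0.956) and Gm13269 (0.953), for Bmp2 Ror1 (0.933) and Fads2 (0.908), for Bmp4 Gm15222 (0.923) and Sparc (0.867), and for Gdf15 Slc6a9 (0.805) and Map1lc3a (0.80). Among the 10 genes, Bmp6 had r of 0.842 to 0.882 with the 3 receptors and -0.182 with Bmp5, while Bmp5 had 0.831 with Bmp2 and 0.786 with Bmper.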

How the data were processed

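The authors deposited unnormalized UMI counts for each gene and barcode, which the file headers attribute to Cell Ranger 8.0.1. The build was mm10 per the submitters' processing notes. Positions are from GENCODE M21 on GRCm38. Retained barcodes had at least 300 genes and 500 UMIs and a mitochondrial share of at most 15%, and predicted doublets (0.4% per 1000 barcodes) were left out, leaving 85386 cells. Clusters (scanpy 1.11.5; 2000 variable genes, 40 components, 15 neighbours, leidenalg 0.10.2 at resolution 1.5) were named where at least 3 markers were in 25% of cells at 2-fold and no other class led the top 10 genes; gene vetoes that left 2 clusters unnamed, and keeping the Ntrk2 Sox17 cluster, were decided after the clusters were seen.

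Counts were summed per library and class, and CPM are shares of these sums. The test was edgeR 4.0.16 quasi-likelihood (R 4.3.3; filterByExpr, TMM, group alone; 3 libraries against 3), with Benjamini-Hochberg adjustment at 0.05 over all genes of a class. Differences between endothelial classes were the class by group term with the library as a block. SEs come from the F statistic. An exact permutation test of 3 against 3 cannot go below 0.1. In simulated counts with a log2 change of 1, 88% of 200 changed genes were recovered for general capillary cells, 75% for pericytes and 61% for the difference of venous and general capillary effects. The simulations gave all genes of a fit the same dispersion and added no effect of single libraries. The aerocyte difference was not simulated, so these shares are not the power of the tests above. Replicates differed beyond counting error (chi-square per degree of freedom 83.9 to 312).

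All 10 genes are named; tests are given for each class where the unadjusted p was under 0.05, other pathway genes where called, and the 2 most similar genes for each. Genes and lists were chosen with earlier results of these data known. Alternatives were RLE or library-size scaling, DESeq2 1.42.0, no filter, a replicate block, leaving out each library, stricter cells (1000 UMIs, 5% mitochondrial), doublets kept, a per-cell marker gate and resolution 0.8; leaving out low-UMI clusters and the largest cluster alone were added after seeing the data. Mice are separate per the labels.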

Additional observations from a re-analysis of the deposited data

Results flagged for a closer look

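These differences between classes passed a test of the difference itself. The change of Id3 in aerocytes was lower than in general capillary cells on the log2 scale (difference -0.49, SE 0.08, edgeR adjusted p = 0.0201), with aerocyte Id3 lower and general capillary Id3 higher in the 3 p16-DTR-labelled libraries than in any of the 3 controls. The change of Smad7 differed by -0.73 (SE 0.13, edgeR adjusted p = 0.0278), with Smad7 higher in general capillary cells of the 3 p16-DTR-labelled libraries and overlapping between groups in aerocytes.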

How the results depend on the processing

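The 7 calls of the 10 genes by class became 18 with no filter on low counts and 13 with DESeq2, and all 7 were called in both; over all genes 1.08% of pairs were called, 2.43% with no filter and 2.83% with DESeq2. They became 2 with predicted doublets kept and 2 at resolution 0.8, where Bmp6 in aerocytes and Bmper in alveolar fibroblasts remained. The per-cell gate gave 5 calls but kept the same 2 of the 7. They became 3 without low-UMI clusters and 3 in the largest cluster of a class alone. Leaving out 1 library gave 5 to 10. The 24 calls of other pathway genes became 81 with no filter, 52 with DESeq2, 15 with the per-cell gate and 14 at resolution 0.8, and leaving out 1 library gave 7 to 24. Over whole libraries the count of 0 of the 10 genes became 1 with DESeq2. The 2 differences between classes became 19 with no filter and 1 with the gate, and leaving out 1 library gave 0 (without p16-DTR replicate 3) to 4 (without control replicate 2), with 1 without p16-DTR replicate 1. Values that reversed were Bmpr2 in pericytes (-0.14 in both settings that drop the small cluster) and, with doublets kept, Bmp4 (-0.21) and Bmp6 (-0.76) in smooth muscle. The cause was not tested, apart from fewer cells in the settings that drop clusters.

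Same-numbered libraries had correlated deviations of 0.310, -0.029 and 0.273, and other-numbered pairs had -0.378 to 0.125. The values 0.310 and 0.273 thus lay above every other-numbered pair. The labels state no pairing, so the main fit took the group alone. With the replicate number as a block, 10 pairs of the 10 genes were called, the 7 with Bmp4 (-0.94, adjusted p = 0.0103) and Bmper in peribronchial fibroblasts and Bmp4 in general capillary cells, and over whole libraries 0. Of other pathway genes 18 pairs were called, which included 13 of the 24; the 11 lost were Smad6, Id1, Hey1, Inhbb, Bambi, Bmp8a and Acvr2a in general capillary cells, Id1, Bmp8a and Bambi in venous cells and Bmp8a in alveolar fibroblasts. In neutrophils, taken as free RNA, mean levels were 50.2 CPM for Bmpr2, 16.5 for Acvrl1, 6.76 for Eng and at most 3.91 for the other 7 genes. Class levels near these are not read as expression, also where a test is given above. They are no floor for other classes, since depth differed (median 9297 UMIs per cell, against 45165 in alveolar type 2 cells). Control Acvrl1 in alveolar type 2 cells lay below its neutrophil level. Grem1 could be tested in no class.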
